A study of Arabidopsis thaliana with 12 samples.

Results

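ARR15 (AT1G74890) and RR16 (AT2G40670, also called ARR16) are type-A response regulators, which are among the first genes that cytokinin switches on in Arabidopsis thaliana. They were taken by name from the platform annotation, which gave each of them a single probe set that reads no other annotated gene, so 2 of the 22746 probe sets tested are described here. The pair was chosen with earlier results of these data known. Cytokinin is sensed by histidine kinase receptors, and phosphate then passes through shuttle proteins to the type-B response regulators, which are transcription factors. These switch on the type-A genes, whose proteins consist mainly of a receiver domain and damp the signal that induced them. Type-A transcripts are therefore widely used as a readout of cytokinin signalling, and in the shoot meristem ARR15 is known as one of those repressed by the stem cell regulator WUSCHEL.

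Seedlings of 9 days, grown on plates, were either Col-0 wild type or the same background carrying 35S:LOB-GR. This transgene joins LOB, the product of LATERAL ORGAN BOUNDARIES and a transcription factor found where lateral organs meet the meristem, to the glucocorticoid receptor's hormone-binding domain under the 35S promoter, which is active in most tissues and not only at boundaries. Seedlings of each genotype stood for 4 h in liquid medium with 5 µM dexamethasone (DEX), which lets the fusion enter the nucleus, or in the same medium without it (mock). Each of the 4 groups was measured on 3 Affymetrix arrays labelled as biological replicates, from total RNA of seedlings. The labels do not say how many transgenic lines were used, so replicates may come from a single line.

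The deposited values are log2 levels made with RMA, and all differences below are on that log2 scale, so a difference of 1 is a doubling. Array medians ran from 5.88 to 5.97, and arrays of the same group correlated at 0.992 or higher across probe sets. The array that deviated most from the mean of its group was DEX replicate 1 of 35S:LOB-GR, with a root mean square deviation over probe sets of 0.166 against 0.0987 to 0.142 for the other arrays. LOB itself is not among the named probe sets, so the transgene's transcript was not analysed here. The leaf marker RCA was bright in every group (group means 13.61 to 13.82), and 2 expansin genes of root hairs, EXPA7 and EXPA18, had group means of 4.89 to 5.28. None of these markers was called in any comparison. The deposited samples are whole seedlings, so fewer cells that express a gene and less of its RNA per cell cannot be told apart.

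ARR15 was dim on every array. Its mean of 4.05 over the 12 arrays exceeded that of 23.3% of probe sets, and no detection calls were used, so background may compress its differences. In Col under mock ARR15 stood at 4.02, 3.80 and 4.17 on replicates 1 to 3. In Col under DEX it stood at 4.08, 4.10 and 4.10. The Col mock and Col DEX arrays overlapped, and the mock arrays were the more scattered of the pair.

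In 35S:LOB-GR under mock ARR15 stood at 4.30, 4.47 and 4.04, and under DEX at 3.73, 3.88 and 3.89. Each DEX array of this genotype lay below each of its mock arrays, and mock replicate 3 and DEX replicate 3 came closest. The group means ran in the order 35S:LOB-GR mock (4.27 ± 0.21), Col DEX (4.09 ± 0.01), Col mock (4.00 ± 0.18) and 35S:LOB-GR DEX (3.83 ± 0.09; log2, SD, n = 3). Arrays of neighbouring groups in that order overlapped at every step. The 35S:LOB-GR DEX arrays were below all arrays of the other groups except Col mock replicate 2.

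RR16 was brighter than ARR15 but below the median of every array, with a mean of 4.98 over the 12 arrays that exceeded that of 38.6% of probe sets. Background may compress its differences too. In Col it stood at 4.68, 4.78 and 4.68 under mock and at 4.83, 4.75 and 4.52 under DEX. Those Col groups overlapped fully, with means of 4.71 ± 0.06 and 4.70 ± 0.16 (log2, SD, n = 3). In 35S:LOB-GR it stood at 5.57, 5.54 and 5.22 under mock, a mean of 5.44 ± 0.19, and at 4.94, 5.17 and 5.04 under DEX, a mean of 5.05 ± 0.11 (SD, n = 3). All 6 arrays of 35S:LOB-GR lay above all 6 arrays of Col, as they did for 4.88% of probe sets. Within 35S:LOB-GR the DEX arrays lay below the mock arrays, though the lowest mock array (replicate 3) and the highest DEX array (replicate 2) were close, at 5.22 and 5.17.

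**Figure D1:**
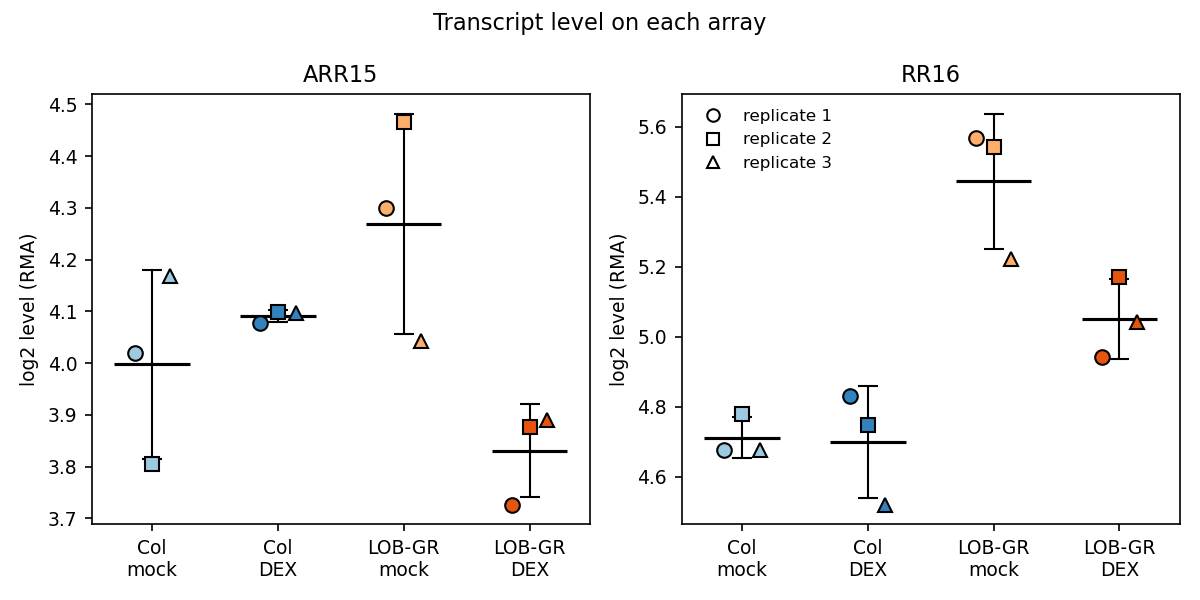
Log2 level (RMA) of ARR15 and RR16 on each of the 12 arrays, by group. Symbols are single arrays by replicate number, horizontal lines are group means and error bars are the SD of 3 arrays. For ARR15 the 35S:LOB-GR DEX arrays (3.73 to 3.89) lie below the mock arrays of that genotype (4.04 to 4.47), and for RR16 all 35S:LOB-GR arrays lie above all Col arrays.

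Activating the fusion was compared with mock medium in 35S:LOB-GR to find transcripts that change once LOB can act in the nucleus. Both type-A regulators fell. ARR15 fell by 0.44 ± 0.11 (SE; 95% interval of the difference -0.68 to -0.20), to 0.738 of its mock level (limma adjusted p = 0.0216). RR16 fell by 0.39 ± 0.11 (95% interval -0.63 to -0.16), to 0.762 of its mock level (limma adjusted p = 0.0346). Over all probe sets 5.99% were called lower in this comparison, and 11% had every DEX array below every mock array. A larger absolute difference than that of ARR15 was found in 8.26% of probe sets, and than that of RR16 in 9.97%.

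These falls were measured on 3 arrays per group, and their calls did not hold with every array left out. For ARR15 the adjusted p rose to 0.0686 without mock replicate 1 of 35S:LOB-GR, to 0.108 without its mock replicate 2 and to 0.0672 without its DEX replicate 1 (limma). For RR16 it rose to 0.139, 0.130 and 0.101 without those same arrays and to 0.0853 without DEX replicate 3 (limma). DEX replicate 1, which deviated most from its group mean, was the array on which both genes were lowest under DEX in 35S:LOB-GR. Without it the differences were -0.39 for ARR15 and -0.34 for RR16. With mock replicate 3 of 35S:LOB-GR left out, on which both genes were lowest among that genotype's mock arrays, the differences were instead larger, at -0.55 for ARR15 and -0.50 for RR16. Both genes therefore stayed lower with any array left out, between -0.55 and -0.34 for ARR15 and between -0.50 and -0.33 for RR16, but not always under the threshold of 0.05. Both calls ended when only the 6 arrays of 35S:LOB-GR were fitted (limma adjusted p = 0.0656 for ARR15 and 0.0935 for RR16). The call for RR16 also ended after median subtraction (-0.35, limma adjusted p = 0.0535) and quantile normalization (-0.35, limma adjusted p = 0.0554).

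In Col, which has no fusion, the same treatment was measured to see what DEX does by itself. Neither regulator was called. ARR15 was at 0.09 ± 0.11 (95% interval -0.15 to 0.34, limma adjusted p = 0.803) and RR16 at -0.01 ± 0.11 (95% interval -0.25 to 0.22, limma adjusted p = 0.981). In this comparison 0.0572% of probe sets were called in either direction, that is 13, and 12.7% had an unadjusted p under 0.05.

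The difference between the 2 DEX responses was tested directly, since a call in 35S:LOB-GR and none in Col does not show that the genotypes differ. The ARR15 response in 35S:LOB-GR minus that in Col was -0.53 ± 0.16 (95% interval -0.87 to -0.19), which was not called (limma unadjusted p = 0.00485, adjusted p = 0.0786). For RR16 it was -0.38 ± 0.16 (95% interval -0.72 to -0.05), also not called (limma unadjusted p = 0.0282, adjusted p = 0.219). The share of probe sets called in this test was 4.77%, and 16.6% had an unadjusted p under 0.05. Its SE is wider than that of a response in a single genotype because 4 group means enter it. With single arrays left out the ARR15 difference was called in 1 of 12 fits, without mock replicate 3 of 35S:LOB-GR (-0.64, limma adjusted p = 0.0256). It was smallest without mock replicate 2 of 35S:LOB-GR (-0.43, limma adjusted p = 0.179) and without Col mock replicate 2 (-0.44, limma adjusted p = 0.191).

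**Figure D2:**
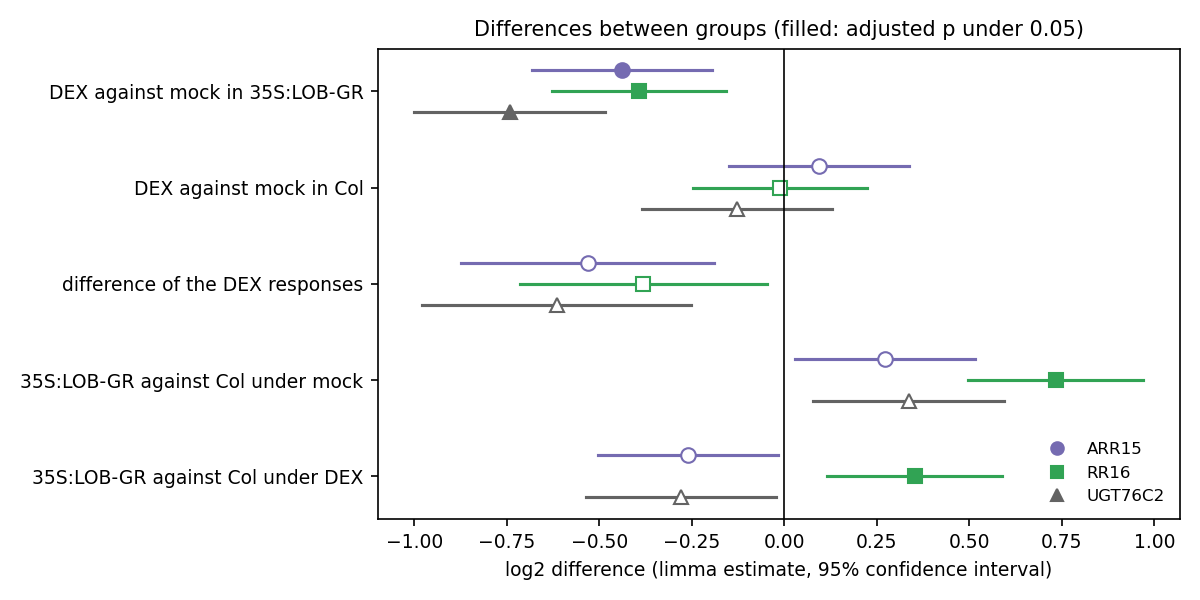
Log2 differences between groups for ARR15, RR16 and the cytokinin glucosyltransferase gene UGT76C2, with 95% confidence intervals from the limma fit. Filled symbols passed an adjusted p of 0.05. DEX in 35S:LOB-GR gave a called fall for each of the 3 genes, while of the genotype differences only those of RR16 (0.73 under mock, 0.35 under DEX) were called. Of the 5 other cytokinin genes measured, UGT76C2 was the 1 called for DEX in 35S:LOB-GR, where 5.99% of all probe sets were called lower.

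Under mock, where the fusion should be held outside the nucleus, the genotypes were compared to see what the transgenic seedlings differ in without DEX. RR16 was higher in 35S:LOB-GR by 0.73 ± 0.11 (95% interval 0.50 to 0.97), a 1.66-fold higher level (limma adjusted p = 0.000462). This was the largest difference of either gene in any comparison, and 2.78% of probe sets had a larger one. It was called with any of the 12 arrays left out (0.67 to 0.85, limma adjusted p at most 0.00368). Over all probe sets 5.76% were called higher under mock, and 14.8% had every 35S:LOB-GR array above every Col array.

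ARR15 was at 0.27 ± 0.11 under mock (95% interval 0.03 to 0.51) and was not called (limma adjusted p = 0.156). Its arrays overlapped, since mock replicate 3 of 35S:LOB-GR (4.04) lay below Col mock replicate 3 (4.17). With single arrays left out it was called in 1 of 12 fits, the one without that 35S:LOB-GR array (0.39, limma adjusted p = 0.0439). Leaving out mock replicate 2 of 35S:LOB-GR gave 0.17, and leaving out Col mock replicate 2 gave 0.18 (limma adjusted p = 0.486 and 0.476). The labels give no sowing or harvest batch, so growth differences between the genotypes cannot be told apart from the transgene.

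Under DEX the regulators lay on opposite sides of Col. RR16 was higher in 35S:LOB-GR by 0.35 ± 0.11 (95% interval 0.12 to 0.59), a 1.28-fold higher level (limma adjusted p = 0.0330). In this comparison 11.7% of probe sets were called higher, and 18.5% had every 35S:LOB-GR array above every Col array. The call ended without Col DEX replicate 2 (limma adjusted p = 0.0637), Col DEX replicate 3 (0.152), or 35S:LOB-GR DEX replicate 2 (0.124) or 3 (0.0739), with differences of 0.26 to 0.38. ARR15 was at -0.26 ± 0.11 (95% interval -0.50 to -0.02), not called (limma adjusted p = 0.126), although each of the 35S:LOB-GR arrays (3.73 to 3.89) lay below each of the Col arrays (4.08 to 4.10), as they did for 15.3% of probe sets. Whether the genotype effect differs between the genes was not tested.

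RR16 thus passed the test in 2 steps, higher than Col under mock and lower with DEX, and remained above Col after DEX. Over all probe sets 1.16% (263) were called higher in 35S:LOB-GR under mock and lower with DEX in that genotype. Both comparisons use the mock arrays of 35S:LOB-GR, so an excess on those arrays raises the one difference and lowers the other. ARR15 was called only for DEX in 35S:LOB-GR. The share of probe sets called lower there and not called under mock was 3.92%, whatever their calls in the other comparisons.

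**Figure D3:**
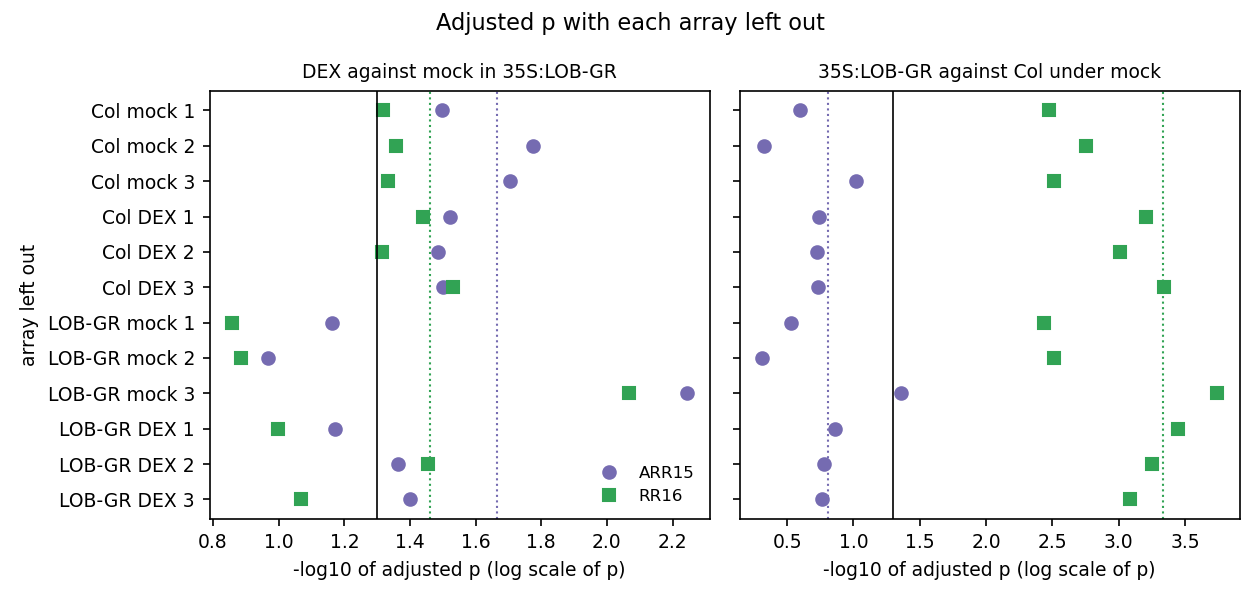
Adjusted p from limma, as -log10, with each of the 12 arrays left out in turn, for DEX against mock in 35S:LOB-GR (left) and 35S:LOB-GR against Col under mock (right). The solid line marks 0.05 and dotted lines the value with all arrays. For RR16 the genotype difference stays to the right of the solid line throughout, while the DEX falls of both genes cross it without certain 35S:LOB-GR arrays.

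Spread between replicates was ordinary for both genes. The residual SD was 0.148 for ARR15 and 0.141 for RR16, against a median of 0.130 over all probe sets. Across the 12 arrays the genes correlated at a Pearson r of 0.43 (Spearman 0.10). This is given as a description, since the arrays fall into 4 groups. Of the 13513 probe sets with a single annotated gene, 90.8% had a lower r to ARR15 than RR16 had, and 81.7% had a lower r to RR16 than ARR15 had.

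The patterns most like that of RR16, by Pearson r over the 12 arrays, were those of AT3G28940 (0.970), HL (AT5G54390, annotated as HAL2-like, 0.968), TAAC (the thylakoid ATP/ADP carrier, 0.961), AT2G29500 (0.958) and AT5G17380 (0.948). AT2G29500 had the widest range of these, from 4.89 in Col under DEX to 7.29 in 35S:LOB-GR under mock. The patterns most like that of ARR15 were those of AT5G22460 (0.906), AT2G20142 (0.899), AT5G14230 (0.892), AT5G18470 (0.878) and AT5G24010 (0.860). Of these AT5G18470 had the widest range, from 4.89 in 35S:LOB-GR under DEX to 6.32 under mock. The genes of both sets were chosen for their likeness on these arrays, so their directions follow from the choice and were not tested. No gene was among the 5 closest to both regulators.

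Adjacent genes were looked up in RefSeq's TAIR10.1 annotation. Of the 2 protein-coding genes on each side of ARR15, OTP43 (AT1G74900, an organelle transcript processing gene) and AT1G74910 were measured, and neither was called in any comparison. On each side of RR16, AT2G40650, AT2G40660 and AT2G40700 were measured, and none was called for DEX in 35S:LOB-GR. AT2G40660, the nearest protein-coding gene on one side of RR16, was higher in 35S:LOB-GR under DEX by 0.44 (limma adjusted p = 0.00396), as was AT2G40700 by 0.34 (limma adjusted p = 0.0254). Over all probe sets 11.7% were called higher in that comparison. Under mock these 2 neighbours were at 0.29 and 0.32, not called (limma adjusted p = 0.0652 and 0.0612). RefSeq lists 2 transcripts for RR16 and 1 for ARR15, and a single probe set does not separate transcripts.

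Few other cytokinin genes could be read through the annotation, which gave no gene for 8730 probe sets and several genes for 503. Listed genes that were not measured here may still be among those probe sets. Of 10 type-A regulators listed, only ARR15 and RR16 have a named probe set here, and of 74 other cytokinin genes in 9 lists 5 were measured. None of the listed receptors, phosphotransfer proteins, synthesis enzymes or transporters was among them. With DEX in 35S:LOB-GR 1 of the 5 fell, where 5.99% of all probe sets did, and none rose. Their median was 0.02, as was that of all probe sets. In Col, in the difference of the responses and between the genotypes under either treatment none of the 5 was called (limma).

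The gene that fell was UGT76C2, whose enzyme inactivates cytokinin by attaching glucose to its ring nitrogen. In 35S:LOB-GR its level was 6.54, 6.75 and 6.79 under mock and 5.83, 5.98 and 6.04 under DEX, in ascending order, so the groups stood well apart. It fell by 0.74 ± 0.12, to 0.598 of the mock level (limma adjusted p = 0.000752), and this call held with any array left out (limma adjusted p at most 0.00469). In Col it was at -0.13 (limma adjusted p = 0.730), and the difference of the responses was -0.62 ± 0.17 (limma adjusted p = 0.0528). Like RR16 and ARR15 it had its highest group mean in 35S:LOB-GR under mock, at 6.69 against 6.36 in Col, a difference of 0.34 that was not called (limma adjusted p = 0.0942). UGT76C1, which encodes a second cytokinin glucosyltransferase, was at -0.04 for DEX in 35S:LOB-GR (limma adjusted p = 0.869) and was not called in any comparison. Its arrays were lower in 35S:LOB-GR than in Col under both treatments without overlap, as were those of 13% of probe sets under mock and 15.3% under DEX. The differences were -0.31 and -0.27 (limma adjusted p = 0.0599 and 0.0685).

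Type-B regulators, the class that activates type-A genes, were represented by RR18 and RR19, and the atypical type-C class by RR22. RR18 was at 0.28 ± 0.09 for DEX in 35S:LOB-GR, the opposite direction to the type-A genes, and was not called (limma adjusted p = 0.0619), though its DEX arrays (3.94 to 4.14) lay above its mock arrays (3.63 to 3.84), as those of 11.8% of probe sets did. Under mock RR18 was lower in 35S:LOB-GR than in Col without overlap, as 13% of probe sets were (-0.24, limma adjusted p = 0.107, not called). Under DEX it was at 0.02 against Col (limma adjusted p = 0.923). For DEX in 35S:LOB-GR, RR19 was at 0.02 and RR22 at 0.04, not called. RR23, added after the annotation was seen, was at -0.02. Under DEX it was lower in 35S:LOB-GR than in Col without overlap, as 15.3% of probe sets were (-0.16, limma adjusted p = 0.245, not called). The group means of these 4 genes lay between 3.46 and 4.01, and the lowest value of any probe set was 2.71, so differences of these genes may be compressed as well.

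**Figure D4:**
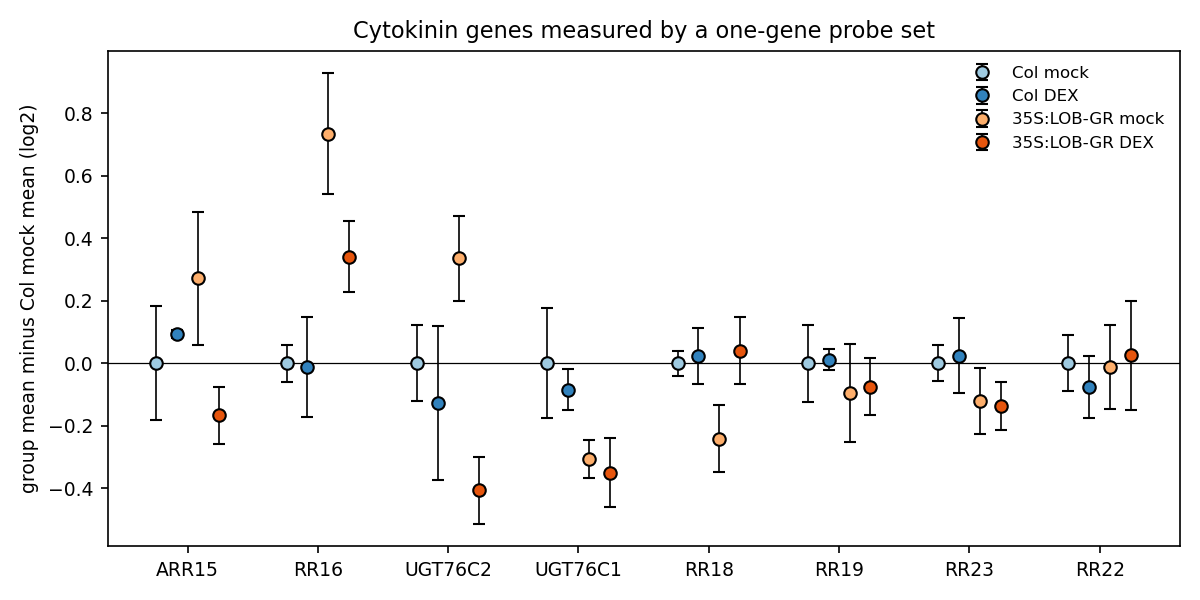
Group means of the 8 response regulator and cytokinin glucosyltransferase genes with a named probe set, each given as the log2 difference from its own Col mock mean. Error bars are the SD of 3 arrays. RR16, UGT76C2 and ARR15 have their highest mean in 35S:LOB-GR under mock (0.73, 0.34 and 0.27 above Col mock, of which only that of RR16 was called). RR19, RR22 and RR23 were not called in any comparison.

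Meristem and boundary genes were listed because type-A regulators act in the shoot meristem. Of 12 listed, the stem cell peptide gene CLV3 and the axillary meristem gene LAS were measured, and neither was called in any comparison. For DEX in 35S:LOB-GR, CLV3 was at 0.01 and LAS at -0.14, with limma adjusted p of 0.986 and 0.566. LAS was lower on each DEX array than on each mock array of 35S:LOB-GR, as 11% of probe sets were, and under DEX it was lower in 35S:LOB-GR than in Col without overlap, as 15.3% were (-0.29, limma adjusted p = 0.107).

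Control probe sets at both ends of the actin transcript were used to compare RNA quality. Their 3' level exceeded the 5' level by 1.22 ± 0.18 in Col mock, 0.94 ± 0.07 in Col DEX, 1.10 ± 0.03 in 35S:LOB-GR mock and 1.10 ± 0.06 in 35S:LOB-GR DEX (log2, SD, n = 3). For GAPDH the same difference was -0.17 and -0.21 in Col and -0.36 and -0.32 in 35S:LOB-GR. The actin values of the mock and DEX arrays of 35S:LOB-GR, between which ARR15 and RR16 fell, differed by less than their spread. The part of RNA quality in those falls was not tested. In Col the actin values did not overlap, at 1.12 to 1.43 under mock and 0.90 to 1.02 under DEX. Their part in the Col comparison was not tested. The GAPDH group means moved with genotype, as RR16 did, though single arrays overlapped (-0.43 to -0.25 in 35S:LOB-GR, -0.28 to -0.13 in Col). The part of the GAPDH values in the RR16 difference was not tested.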

How the data were processed

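The deposited log2 values, 1 per probe set and array, were made with RMA on Affymetrix arrays, per the submitters' processing notes, which give no version. Because RMA forces all arrays to share a distribution, it would shrink a change common to most transcripts. No detection calls were used, and precision is limited by 3 arrays per group.

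The 64 control probe sets were left out, which left 22746. The platform annotation gave 1 gene for 13513 of them, and 13436 matched RefSeq's TAIR10.1 table through Entrez identifiers. The files name no build, so no coordinates are given.

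The fit of the 4 group means used limma 3.58.1 (R 4.3.3), all 12 arrays and no replicate block. Tests were moderated (eBayes), two-sided and adjusted by Benjamini-Hochberg over 22746 probe sets, and called at an adjusted p under 0.05. With changes simulated for DEX in 35S:LOB-GR in 200 of 22746 probe sets, 79% were recovered at a size of 0.5 and 99% at 1, with 13 false calls. In the data 2267 probe sets were called there, and the differences of ARR15 (-0.44) and RR16 (-0.39) were smaller than 0.5. These shares therefore do not give the recovery to be had for either gene.

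Both members are named in every comparison. The other genes named are measured members of the lists, and the 5 of highest Pearson r to each member. The members and lists were chosen with earlier results of these data known. Residuals of same-numbered arrays correlated between -0.228 and 0.130, and those of differently numbered mock and DEX arrays of 35S:LOB-GR reached 0.337. The labels do not say whether a replicate number marks a shared batch, and the numbers were not used to pair arrays. Alternatives were the groups compared alone, other normalizations, filters on dim probe sets, an intensity trend, array weights, the replicate number as a block, and leaving out single arrays.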

Additional observations from a re-analysis of the deposited data

How the results depend on the processing

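Of 188 recomputed differences of ARR15 and RR16, 166 kept their direction and their side of the threshold. For DEX in 35S:LOB-GR, fitting only the 6 arrays compared left 1500 probe sets called and gave -0.44 for ARR15 and -0.39 for RR16, neither called (limma adjusted p = 0.0656 and 0.0935). RR16 was not called there after median subtraction (-0.347) or quantile normalization (-0.351, limma adjusted p = 0.0554). For DEX in Col, RR16 turned from -0.01 to 0.0314 after median subtraction and to 0.0057 after quantile normalization, none of them called. Probe sets called in Col numbered 407 with the Col arrays alone, 399 with array weights, 50 with an intensity trend and 30 with a filter on the dimmest 10% of probe sets, which was chosen after seeing the data. Leaving out single arrays gave 2 to 141 calls in Col, the lowest without mock replicate 1 or any DEX replicate of Col and the highest without DEX replicate 1 of 35S:LOB-GR.

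With single arrays left out, DEX in 35S:LOB-GR ran from -0.552 to -0.340 for ARR15 and from -0.504 to -0.330 for RR16. DEX in Col ran from -0.0031 to 0.179 for ARR15, reversed without Col mock replicate 2, and from -0.0767 to 0.0781 for RR16, reversed without Col mock replicate 2 (0.0224) or Col DEX replicate 3. The difference of the responses ran from -0.645 to -0.434 for ARR15. For UGT76C2, whose difference of the responses just missed the threshold, it passed with either filter on dim probe sets, with array weights and without Col DEX replicate 3 or 35S:LOB-GR mock replicate 2 (limma adjusted p = 0.0245 to 0.0481). The genotype difference ran from 0.174 to 0.385 for ARR15 under mock and from 0.263 to 0.418 for RR16 under DEX.

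Residuals of same-numbered arrays correlated weakly and in either direction, and the numbers were not used to pair them. With the replicate block DEX in 35S:LOB-GR was -0.44 for ARR15 and -0.39 for RR16 (limma adjusted p = 0.0387 and 0.0247), no call of either gene changed in any comparison, and 8 probe sets were called in Col against 13. The planned filter at the median level kept 11373 probe sets and removed both genes, so it gave no value for them. The cause of the other changes was not tested. The number of arrays limits both genes, whose DEX calls were lost with single arrays left out, and no detection calls were used.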
